A study of Gossypium hirsutum with 24 samples.

Results

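Cotton ovules bearing fibre at 20 days post anthesis (dpa), when the fibre is laying down its secondary wall, were compared between drought-stressed and well-watered plants on 3 arrays per treatment, 6 of the 24 arrays of the study. The members are these 6 arrays, chosen by the stage and treatment in their titles, and the comparison is drought minus control for each of the 23973 probe sets left after 159 control probe sets were set aside. Both groups were field-grown Gossypium hirsutum cv. Bikaneri Nerma, and the other 18 arrays hold the same 2 treatments at 0, 5 and 10 dpa. In the drought group irrigation was stopped at peak flowering and 6 plots were sheltered from rain. Sampling began after 18 to 19 days, at a soil moisture of 19.5%, which was 50% of that of normal plots, and about 20% was kept during sampling. The control group came from 6 plots kept at normal moisture. Replicates are biological by their labels, but which plot or plant each came from is not given. The p-values measure the spread between replicate arrays, pooled over all 24 arrays of the study and not taken from these 6 alone.

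A cotton fibre is a single cell that grows out of the seed coat. It first elongates, with a thin wall loosened by expansins and driven by turgor, and then deposits nearly pure cellulose in a secondary wall, for which sucrose synthase, cellulose synthase and microtubules are needed. Drought is known to alter hormone signalling, above all by abscisic acid and ethylene, and to induce protective proteins. The RNA came from whole ovules with their fibre, so fewer cells of a type and less RNA per cell cannot be told apart.

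The deposited values are log2 signals from which the median of the 6 arrays of a stage had been subtracted for each probe set. They carry differences between drought and control but no levels, so the labelled tissue could not be checked by the abundance of its markers. Of 17 fibre marker genes 6 were higher and 11 lower in drought (median −0.63), of 6 seed storage and embryo genes 0 were higher and 3 lower (median −0.17), and the single photosynthesis and pollen markers, RCA1 and G9, stood at −0.85 and −0.26. With the 5′ minus 3′ signal of the spiked poly-A controls as a covariate, RCA1 was at −0.18 and G9 at 0.16, neither called. Of the fibre genes that rose, CesA1 and BTub3 kept their call with it, and EXPA11A, TubA2, TUA10 and TUA6 did not. Of those that fell, HOX3, Rac13, EXPA13D and BTub1 lost theirs, and among the seed genes only LegA kept its call. The part of these markers in the other results was not tested. The SD of the difference between arrays was 0.163 to 0.197 for pairs of drought arrays and 0.232 to 0.266 for pairs of control arrays, against 0.745 to 0.855 for pairs across treatments.

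The bacterial poly-A controls, transcripts added to the RNA, differed between the treatments according to the part of the transcript probed. Their 5′ probe sets were higher in drought by a median of 2.34 on the log2 scale, their middle ones by 0.933 and their 3′ ones by 0.14, each over 12 probe sets. The 5′ minus 3′ signal was 0.868, 0.900 and 0.763 in the drought arrays, against −0.822, −1.74 and −1.54 in the control arrays. The medians of 6 cotton control transcripts were 1.28 for the 5′ and 0.0502 for the 3′ probe sets, with the 5′ difference above the 3′ one in 4 transcripts and not in the other 2. This signal separates the treatments without overlap, and its part in the results was not tested.

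**Figure D1:**
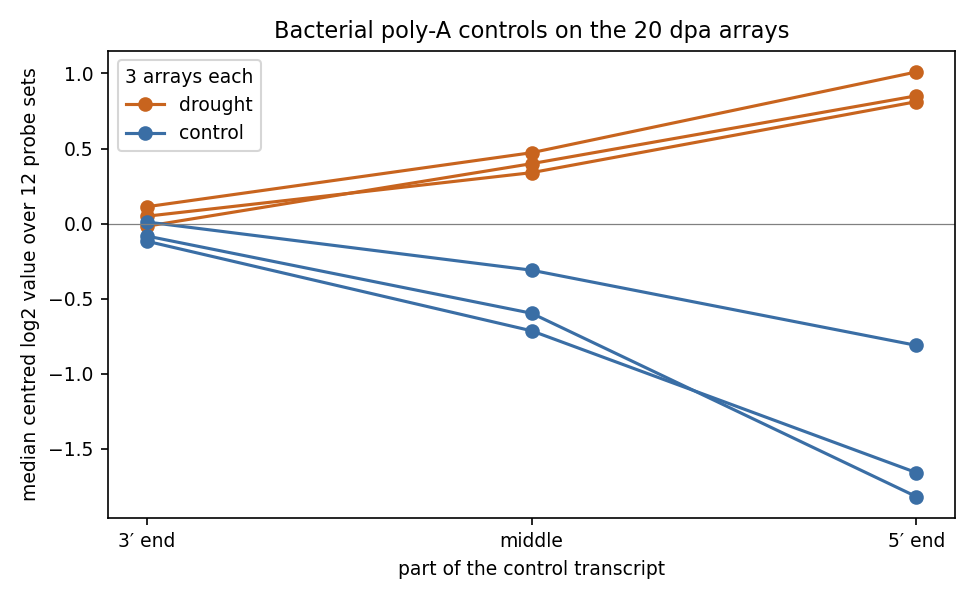
Median centred log2 value of the bacterial poly-A controls (vertical axis) at the 3′ end, middle and 5′ end of the transcripts, a line per array, for 3 drought and 3 control arrays at 20 dpa. The arrays lie close together at the 3′ end and part at the 5′ end, where the drought arrays reach 0.812 to 1.01 and the control arrays −1.82 to −0.812.

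These poly-A controls bear on how firmly a rise can be read. The 27 hybridisation control probe sets of the same arrays went the other way, with a median difference of −0.357 (−0.737 to −0.136). Scaling on them alone, which would shift differences upward, was not tried. Scaling on the poly-A and hybridisation controls together shifted differences by −0.018. When every array was scaled on all 36 poly-A probe sets, a setting added after the data were seen, each difference shifted by −0.893. Of the 68 named genes called higher, 46 took a negative difference and 17 were still called higher. The shift is the same for every gene, so a sign turned wherever a rise was smaller than the shift. A rise that turns negative with this scaling, here and below, restates its size and is no test of the single gene. The downward shift enlarges every fall. That all 111 named genes called lower were still called lower is therefore no test of the falls. Scaling on the 3′ probe sets alone shifted differences by −0.111. With the 5′ minus 3′ signal of the poly-A controls as a covariate, also added later, 92 of the 179 called genes kept their call and direction, 30 higher and 62 lower, while the median standard error grew to 0.242, against 0.0952 without it. Of the named genes, 12 were called higher in the fit as deposited, with that scaling and with that covariate, and 62 were called lower in all of them. The count of 62 is set by the covariate alone, since the scaling can only enlarge falls. The 12 are WRKY24/WRKY71, ACS3/ACS6, DBP3b, MFP, GRPL1, ASP3, BC1, SMT2-2, FAD78-1, NAC2, FLA11 and ERF9. With the 5′ minus 3′ signal of the cotton control transcripts as a covariate instead, BC1 and SMT2-2 were not called.

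Drought and control arrays differed at a large part of the probe sets. By limma with Benjamini-Hochberg adjustment over all probe sets, called at an adjusted p under 0.05, 14380 of 23973 probe sets (60.0%) differed, 6231 higher (26.0%) and 8149 lower (34.0%). Of the called probe sets 43.3% were higher, or 31.7% with scaling on the 3′ ends and 6.16% with scaling on all ends of the poly-A controls. With the spread taken from the arrays of 20 dpa alone, 12924 probe sets were called. Changes reached 2-fold or more at 1693 probe sets for rises (7.06%) and at 1146 for falls (4.78%). These counts depend on the treatment of the 5′ signal: 4983 probe sets were called with the poly-A covariate and 4359 with the same signal of the cotton controls as a covariate, and with scaling on all poly-A ends 573 were at least 2-fold higher and 10898 lower. The treatments had no overlapping array values at 15041 probe sets (62.7%). Most changes were small, with a median size of 0.292 on the log2 scale, and the median difference was −0.067.

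The annotation gave a single gene to 697 probe sets, for 520 genes, of which 243 had an informative name. Of these 243 genes 68 were higher, 111 lower and 64 did not pass the test, with a median difference of −0.126, and 19 were at least 2-fold higher and 36 at least 2-fold lower. Their groups did not overlap for 192 of the 243 genes, beside 15041 of all 23973 probe sets (62.7%). Of all probe sets 26.0% were called higher and 34.0% lower, which is the background for the counts in each list below. A gene's value is that of a probe set chosen without regard to its values, and 142 were read by probe sets with the suffix _s_at or _x_at, which can bind related transcripts. For 23 genes, some of them among those 142, the probe set was designed against the antisense strand, with AOX1, GEPH, CesA1, pod10, GLU, ARF1, GID1-4, Rac13 and LegB among those given below. Values below are log2 differences, drought minus control, with their standard error (SE) from the fit and n = 3 arrays per group.

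**Figure D2:**
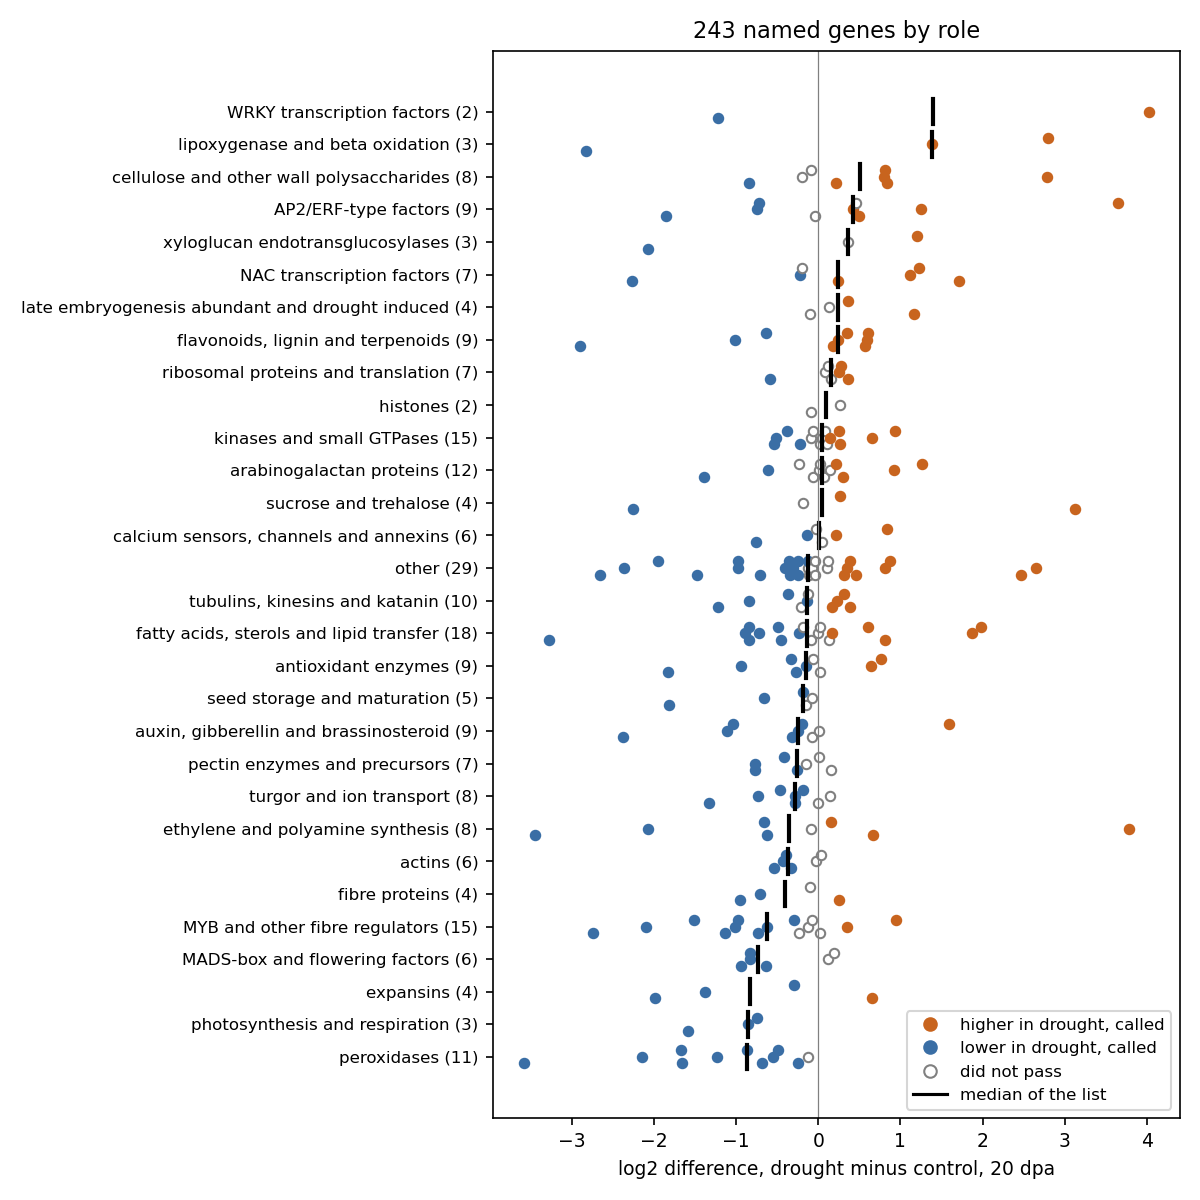
Log2 difference, drought minus control, of the 243 named genes at 20 dpa (horizontal axis) by role (rows, with the number of genes). Filled points passed the test, open points did not, and bars mark the median of a list, which runs from −0.87 for the peroxidases to 1.40 for the 2 WRKY genes.

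Among transcription factors the highest was WRKY24/WRKY71 (LOC107906829), of a family that binds W-box elements in stress and defence genes. Its centred values were 1.94, 1.94 and 2.06 in drought and −2.25, −1.94 and −1.94 in control arrays. It was 16.2-fold higher, at 4.02 ± 0.08 (limma adjusted p = 1.81e-19). DBP3b (LOC107890730), an AP2-type factor of the kind that binds drought response elements, had 1.78, 1.72 and 1.83 in drought and −2.02, −1.87 and −1.72 in control arrays, and was 12.5-fold higher at 3.65 ± 0.08. Both sets of arrays stood far apart for these genes. WRKY15, the other WRKY gene, fell to −1.22 ± 0.14, a call that the poly-A covariate ended (−0.80).

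Of the 9 AP2/ERF-type genes 4 were higher, 3 lower and 2 did not pass. ERF9 rose by 1.25 ± 0.10, CBF20/DREB1C by 0.50 ± 0.04 and ERF3 by 0.42 ± 0.05, the last 2 turning negative with scaling on all ends of the poly-A controls. ERF7 fell to −1.85 ± 0.12, CBF17 to −0.74 ± 0.10 and ERF8 to −0.72 ± 0.10, and of these CBF17 lost its call with the poly-A covariate. RAV1 stood at 0.45 ± 0.25 without passing, but at −1.71 with that covariate and −0.44 with that scaling, both called lower. The family held rises and falls of more than 2-fold side by side.

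NAC factors, which include regulators of senescence and of secondary walls, were split as well, with 4 of 7 genes higher and 2 lower. NAC2 was at 0.97, 0.80 and 0.96 in drought and −0.81, −0.81 and −0.80 in control arrays, a rise of 1.72 ± 0.08. NAC4 rose by 1.23 ± 0.17. nst3, named like the Arabidopsis regulator of secondary wall thickening, rose by 1.11 ± 0.13. NAC4 was at 0.40 and nst3 at −0.09 with the poly-A covariate, neither called. The 2 further nst3 probe sets, at 0.28 and 0.04 (antisense design), did not pass the test. NAC5/NAC8 had −1.21, −0.82 and −0.92 in drought and 1.50, 1.52 and 0.82 in control arrays, and fell to −2.26 ± 0.18.

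MYB and other fibre regulators were mostly lower, with 9 of 15 genes lower, 2 higher and a median of −0.63. GHMYB10 had −1.28, −1.35 and −1.33 in drought and 1.28, 1.46 and 1.51 in control arrays and was 6.68-fold lower (−2.74 ± 0.08). GHMYB38 fell to −2.10 ± 0.06, although its other probe set, at −0.26, did not pass, and GHMYB36 to −1.51 ± 0.10. Further members of the list fell too, among them MYB5/MYB6 (−1.14 ± 0.05), the homeobox genes HB4 (−1.02 ± 0.05) and HOX3 (−0.63 ± 0.09), myb109 (−0.98 ± 0.10) and GHTTG1 (−0.73 ± 0.05). Of these HOX3 lost its call with the poly-A covariate. The zinc finger gene ZFP1 rose by 0.94 ± 0.08 and WD1521 by 0.35 ± 0.05. With scaling on all poly-A ends ZFP1 was not called and WD1521 was negative. MADS-box and flowering genes, which specify flower and seed organs, held 4 lower of 6, namely COL5-D (−0.94 ± 0.05), MADS-1 (−0.84 ± 0.05), MADS-9 (−0.83 ± 0.09) and MADS-2 (−0.63 ± 0.06), and none that passed as higher.

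Genes for the 2 dedicated steps of ethylene synthesis held the largest rise and the largest falls of their list. ACS3/ACS6 (LOC107947061), an ACC synthase gene for the first of them, had 1.88, 1.91 and 1.87 in drought and −1.95, −1.87 and −1.88 in control arrays, and was 13.8-fold higher (3.79 ± 0.06). ACO3 (LOC107915412), which codes for the ACC oxidase that releases ethylene, had −1.79, −1.67 and −1.65 in drought and 1.65, 1.78 and 1.80 in control arrays, and was 10.9-fold lower (−3.45 ± 0.05). Both genes named ACO1 fell, LOC107954048 to −2.07 ± 0.12 and LOC107905899 to −0.65 ± 0.06, and the ACC synthase gene ACS1 to −0.63 ± 0.04. The last of the 3 ACC synthase genes, ACS (LOC107923295), stood at −0.09 ± 0.12 and passed on none of its 4 probe sets. SAMS, whose product makes the methyl donor that both ethylene and polyamine synthesis start from, rose by 0.67 ± 0.05 and SAMDC of polyamine synthesis by 0.15 ± 0.04, both negative with scaling on all poly-A ends, and SAMDC lost its call with the covariate.

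Of 9 genes of auxin, gibberellin and brassinosteroid 6 were lower and 1 higher. Aux6 had −0.95, −1.19 and −1.72 in drought and 1.16, 1.16 and 0.95 in control arrays, and was 5.19-fold lower (−2.38 ± 0.12). DET2, a steroid reductase of brassinosteroid synthesis, fell to −1.11 ± 0.07 and Aux2 to −1.03 ± 0.06. GID1-2, named as a gibberellin receptor, rose by 1.60 ± 0.25, but stood at −0.40 with the poly-A covariate, without passing. GID1-4 fell to −0.24 ± 0.10 and ARF1 to −0.20 ± 0.05, and both were positive and not called with that covariate.

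Of the 8 genes of cellulose and other wall polysaccharides 5 were higher, 1 lower and 2 did not pass, with a median of 0.51, but 4 of the 5 turned negative with scaling on all poly-A ends. GRPL1 (LOC107953490) had 1.36, 1.38 and 1.14 in drought and −1.14, −1.44 and −1.90 in control arrays, and was 6.91-fold higher (2.79 ± 0.14, and 1.55 with the poly-A covariate). Of its 3 other probe sets 2 were higher, at 1.53 (antisense design) and 0.55, and 1 lower, at −0.38. CesA1, a cellulose synthase gene of the secondary wall, had 0.37, 0.42 and 0.41 in drought and −0.43, −0.37 and −0.50 in control arrays, a rise of 0.83 ± 0.11, while its second probe set, also of antisense design, fell to −0.51 ± 0.11. CEL rose by 0.81 ± 0.07, GLU by 0.80 ± 0.06 and the chitinase-like CTL1 by 0.22 ± 0.08. These and CesA1 are the rises that turn negative with that scaling, and CEL also lost its call with the poly-A covariate, at 0.39 with a limma adjusted p of 0.065. ManA2 fell to −0.84 ± 0.06.

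Wall-loosening and wall-modifying genes were mainly lower. EXP1, an expansin of elongating fibre, had −1.03, −0.95 and −0.99 in drought and 1.05, 0.95 and 1.00 in control arrays, and fell to −1.99 ± 0.06. EXPA3D fell to −1.38 ± 0.10, and its second probe set, of antisense design, to −4.76 ± 0.08. EXPA13D fell to −0.29 ± 0.10, not called with the poly-A covariate, and EXPA11A rose by 0.65 ± 0.12 but was negative with that covariate (−0.05) and with scaling on all poly-A ends (−0.24). Of the 3 xyloglucan endotransglucosylase genes, which cut and rejoin hemicellulose, XTH3 fell to −2.07 ± 0.10, XTH1 rose by 1.20 ± 0.10 and XTH (LOC107886823) stood at 0.36 ± 0.16. The call of XTH1 ended with the poly-A covariate (0.30) and its second probe set was at −0.11 without passing. Of 7 pectin genes 4 were lower and 0 higher, with PGIPL (−0.77 ± 0.05), the glucuronate epimerase GAE2 (−0.76 ± 0.08) and the rhamnose synthase RHM3 (−0.41 ± 0.05). With the poly-A covariate these 3 kept their call, G9 lost it (0.16), and 1 gene that had not passed was called higher. Pel stood at 0.01 ± 0.10 without passing, while its second probe set was called lower at −1.19.

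Of 12 fasciclin-like arabinogalactan protein genes, which code for proteoglycans of the wall and cell surface, 4 were higher, 2 lower and 6 did not pass. FLA13 and FLA14 did not pass on their chosen probe sets (0.02 and 0.01), but their other probe sets were called higher. These stood at 1.46 for FLA13 and at 1.18 and 0.33 (antisense design) for FLA14. FLA11 had 0.43, 0.62 and 0.53 in drought and −0.43, −0.79 and −0.97 in control arrays, a rise of 1.26 ± 0.09, and FLA7 rose by 0.92 ± 0.10, not called with scaling on all poly-A ends. FLA15 rose by 0.31 ± 0.06 and FLA6 by 0.21 ± 0.07, both negative with scaling on all poly-A ends. FLA19 fell to −1.38 ± 0.11 and FLA12 to −0.61 ± 0.06. FLA15, FLA6 and FLA12 were not called with the poly-A covariate. The fibre proteins E6 and Fb2 fell, to −0.96 ± 0.08 and −0.71 ± 0.06, H6L stood at −0.10 ± 0.10 and Ghfe1 rose by 0.25 ± 0.06, and that rise was negative both with scaling on all poly-A ends and with the poly-A covariate.

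Sucrose synthases, which split sucrose to feed cellulose synthesis, went in both directions. SusA1 (LOC107910106) had 1.27, 1.66 and 1.35 in drought and −1.27, −1.60 and −2.22 in control arrays, and was 8.72-fold higher at 3.12 ± 0.38, the widest error among the 16 largest changes. It stood at −0.35 with the poly-A covariate, without passing, and its antisense probe set was higher by 0.59 ± 0.12. susC had −1.11, −1.09 and −1.16 in drought and 1.14, 1.16 and 1.09 in control arrays, and fell to −2.25 ± 0.05 (4.77-fold). Sus1 rose by 0.27 ± 0.04, negative with scaling on all poly-A ends and not called with the covariate, and TPS1, of trehalose synthesis, stood at −0.18 ± 0.09.

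**Figure D3:**
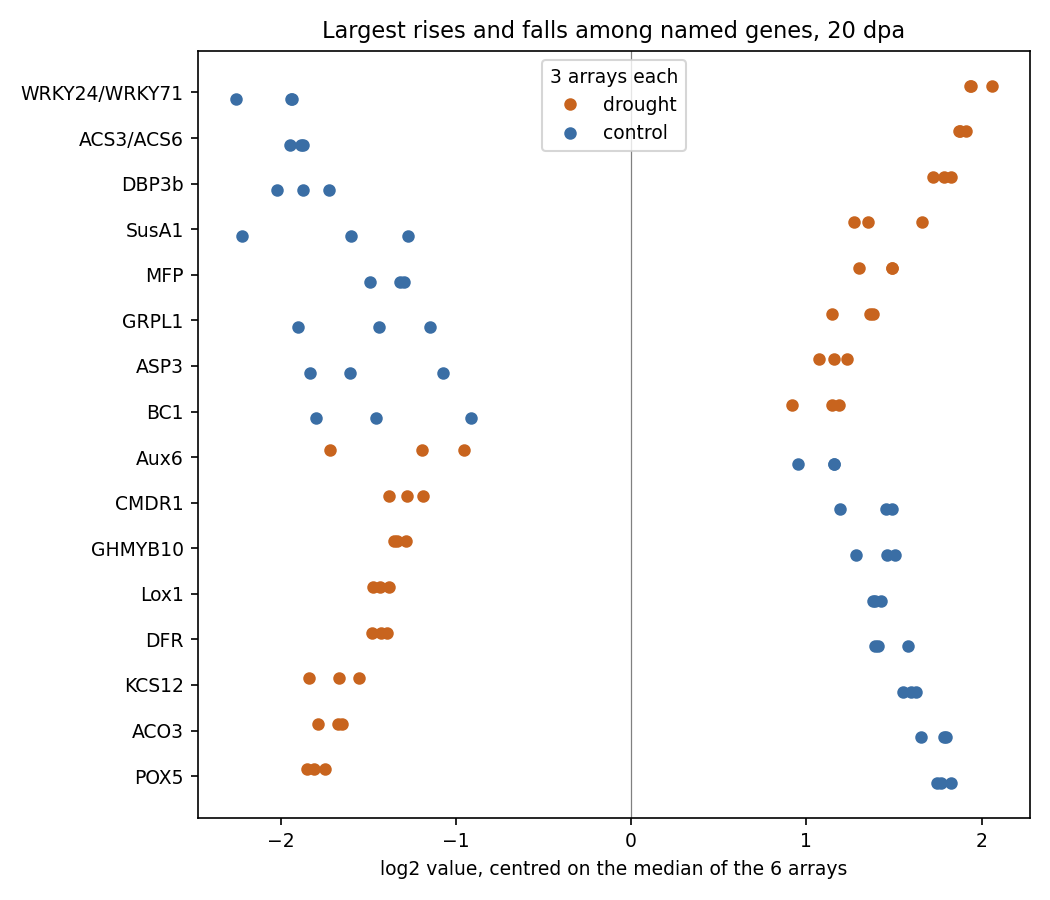
Centred log2 values (horizontal axis) of the 8 named genes with the largest rise and the 8 with the largest fall at 20 dpa, a point per array, 3 drought arrays above 3 control arrays in each row. Drought and control arrays do not overlap in any row. Among the rises SusA1, MFP, GRPL1, ASP3 and BC1 have their highest control value in control replicate 1, and among the falls DFR has it there too.

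Lipid genes held 5 higher, 8 lower and 5 that did not pass of 18, and with the poly-A covariate 4 of the rises and 3 of the falls kept their call. KASIII, KAS2-1, ACBP and the rise of sad1 were among those lost. KCS12, a ketoacyl-CoA synthase for very-long-chain fatty acids, had −1.67, −1.84 and −1.55 in drought and 1.55, 1.63 and 1.60 in control arrays, and was 9.69-fold lower (−3.28 ± 0.13). FDH, of the same enzyme class, fell to −0.89 ± 0.07, and FSLTP2, a lipid transfer protein of fibre, to −0.85 ± 0.07. The cyclopropane fatty acid synthase genes CPA-FAS-1 (−0.85 ± 0.18) and CPA-FAS-2 (−0.72 ± 0.07) also fell, both without a call under the poly-A covariate. The sterol methyltransferase gene SMT2-2 rose by 1.98 ± 0.15, or 0.77 with the poly-A covariate and 0.67, not called, with the cotton covariate. The desaturase gene FAD78-1 rose by 1.87 ± 0.09. SMT2-1 rose by 0.81 ± 0.05 and the phospholipase gene pldd by 0.60 ± 0.06, both negative with scaling on all poly-A ends. KCS38 stood at 0.02 ± 0.07 on its chosen probe set, while its other 3 were at −1.11, −1.72 and 0.66 (antisense design) and were called.

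Both beta oxidation genes were called higher, and 1 of them with the poly-A covariate too. MFP, the multifunctional enzyme of beta oxidation, had 1.30, 1.49 and 1.49 in drought and −1.30, −1.49 and −1.32 in control arrays, and was 6.94-fold higher (2.79 ± 0.17, and 1.43 with the poly-A covariate). ACX, an acyl-CoA oxidase gene of the same path, rose by 1.39 ± 0.16 but stood at 0.0026 with that covariate. Lox1, a lipoxygenase gene, had −1.43, −1.38 and −1.47 in drought and 1.38, 1.39 and 1.43 in control arrays, and was 7.10-fold lower (−2.83 ± 0.05).

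Peroxidases were the list with the lowest median (−0.87), with 10 of 11 genes lower and none higher. POX5 (LOC107914564) had −1.85, −1.81 and −1.74 in drought and 1.77, 1.74 and 1.83 in control arrays, a 12-fold fall (−3.58 ± 0.08). pod7 fell to −2.15 ± 0.08, POX10 to −1.67 ± 0.11, pod5 to −1.66 ± 0.12 and pod10 to −1.23 ± 0.10. With the poly-A covariate 5 of the 10 kept their call and pod10 (−0.71) did not. Of 9 antioxidant enzymes 5 were lower and 2 higher: the glutathione S-transferase gene LOC107948407 fell to −1.83 ± 0.06 and the catalase CAT2 to −0.94 ± 0.08, while sAPX (0.77 ± 0.10) and FeSOD (0.64 ± 0.12) rose, both negative with scaling on all poly-A ends. CAT2, sAPX and FeSOD were not called with the poly-A covariate.

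Flavonoid, lignin and terpenoid genes numbered 6 higher and 3 lower of 9, and all 6 rises turned negative with scaling on all poly-A ends. DFR, the reductase that leads to anthocyanins and condensed tannins, had −1.39, −1.43 and −1.48 in drought and 1.58, 1.39 and 1.41 in control arrays, and was 7.43-fold lower (−2.89 ± 0.06). The chalcone synthase gene CHS2 fell to −1.01 ± 0.15 and cdn1, of gossypol synthesis, to −0.64 ± 0.15, both positive and not called with the poly-A covariate. CHS6 rose by 0.60 ± 0.13, CCR1 of lignin synthesis by 0.59 ± 0.08 and CCoAMOT2 by 0.57 ± 0.07, and none of these 3 was called with the poly-A covariate. Among other CHS2 probe sets, 3 in all, only 1 was called (−0.26, antisense design).

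Of 8 turgor and ion transport genes 6 were lower and none was called higher, with the aquaporin-family gene NIP6.1 at −1.33 ± 0.13, PEPC1 of malate synthesis at −0.73 ± 0.05 and the vacuolar proton pump gene cva69.24 at −0.46 ± 0.05. With the poly-A covariate PEPC1 and cva69.24 kept their call, NIP6.1, KT, VATE and DET3 did not, and VP, at 0.14 ± 0.06 without passing, was called higher at 0.45. The alternative oxidase gene AOX1 fell to −1.59 ± 0.11, the Rubisco activase gene RCA1 to −0.85 ± 0.13 and PTAC to −0.75 ± 0.08. RCA1 had −0.14, −0.37 and −0.22 in drought and 0.14, 1.03 and 0.65 in control arrays and was not called with the poly-A covariate. Of 5 seed storage and maturation genes 3 were lower, with the legumin LegA at −1.81 ± 0.11, MatP7 at −0.66 ± 0.12 and LegB at −0.19 ± 0.07. The second LegB probe set, also of antisense design, was higher at 0.76. Only LegA kept its call with the poly-A covariate.

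Of 4 late embryogenesis abundant and drought-induced genes 2 were higher and 2 did not pass. Lea14-A, a late embryogenesis abundant protein gene, had 0.62, 0.57 and 0.49 in drought and −0.84, −0.49 and −0.49 in control arrays, a rise of 1.17 ± 0.07 (1.62 with the poly-A covariate, and 0.27 with scaling on all poly-A ends, not called). Di19-1 rose by 0.36 ± 0.10, negative with scaling on all poly-A ends and not called with the covariate, while Lea5-D (0.13 ± 0.06) and Di19-2 (−0.10 ± 0.06) did not pass. Among 6 calcium genes CBL2 fell to −0.75 ± 0.05 and AnnGh1 to −0.14 ± 0.05. CBL1 rose by 0.83 ± 0.12 and Anx1 by 0.22 ± 0.04, the 2 rises turning negative with that scaling. A second CBL1 probe set was higher by 1.96 ± 0.11, more than the scaling's shift of −0.893 removes. CBL2 alone among the 4 kept its call with the covariate.

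Of 15 kinase and small GTPase genes 5 were higher and 4 lower. MPK3, a mitogen-activated protein kinase gene, had 0.38, 0.24 and −0.02 in drought and −0.81, −0.57 and 0.02 in control arrays, which overlap, and was called at 0.65 ± 0.14. All 6 of its probe sets were higher and called, from 0.65 to 2.09. Those at 1.17 and 0.99 were of antisense design. SERK1 rose by 0.94 ± 0.10, while its second probe set, of antisense design, was lower at −0.44. Rab7 fell to −0.54 ± 0.07, Rac13 to −0.51 ± 0.10 and RacA to −0.38 ± 0.06. SERK1, Rab7 and Rac13 were not called with the poly-A covariate. With scaling on all poly-A ends the chosen MPK3 probe set turned negative and SERK1 was not called. The other MPK3 probe sets, at 0.99 to 2.09, were higher by more than that scaling's shift of −0.893 removes.

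Of 10 tubulin, kinesin and katanin genes 4 were higher and 4 lower, and the 4 rises (BTub3, TubA2, TUA10 and TUA6, from 0.17 to 0.38) turned negative with scaling on all poly-A ends. BTub1 fell to −1.22 ± 0.13 and BTub4 to −0.84 ± 0.06, and BTub1, TubA2, TUA10 and TUA6 were not called with the poly-A covariate. TUA10 rose by 0.22 ± 0.05 on its chosen probe set and was lower on its other 2, both of antisense design, at −0.99 and −1.01. Of 6 actin genes 4 fell, to between −0.54 and −0.34, and none kept its call with the poly-A covariate. Ribosomal and translation genes numbered 3 higher, by at most 0.36, and 1 lower of 7, none of them called with the covariate and the 3 rises negative with scaling on all poly-A ends, and both histone genes did not pass.

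Among genes of other roles (8 higher and 14 lower of 29) ASP3 had 1.16, 1.23 and 1.07 in drought and −1.07, −1.60 and −1.83 in control arrays and rose by 2.66 ± 0.17, or 0.95 with the poly-A covariate. BC1 had 1.15, 1.19 and 0.92 in drought and −0.92, −1.45 and −1.80 in control arrays and rose by 2.47 ± 0.17. It was at 0.80 with that covariate and at 0.79, not called, with the cotton covariate. Both had control values that spread more than their drought values. CMDR1 fell to −2.66 ± 0.09, Pat1 to −2.36 ± 0.09 and GEPH to −1.95 ± 0.09.

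The 277 annotated genes without an informative name were 77 higher, 133 lower and 67 not passed, from 3.28 (LOC107918078) to −4.28 (LOC107938356). The largest changes lay among the 23230 probe sets with no gene, from −6.36 to 6.75. Several probe sets of a gene did not always move together: of 33 named genes with at least 2 called probe sets, 9 had calls in both directions. For several of these, SERK1, KAS2-1, TUA10 and KCS38 included, the opposite call came only from a probe set of antisense design. CesA1 and LegB had only probe sets of antisense design, and GRPL1 had opposite calls among those of sense design.

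Drought effects at 20 dpa were also set against those at 10 dpa, in ovules with elongating fibre, a separate set of 3 drought and 3 control arrays. The effect differed between the stages at 14366 probe sets (59.9%), and 4250 (17.7%) were called in opposite directions with a called difference. Among named genes called at both stages, 66 of 149 (44.3%) were called in opposite directions, 37 higher and 29 lower at 20 dpa, near the 4250 of 10181 (41.7%) of all probe sets called at both stages. The 6 named genes with the largest difference that were higher at 20 dpa and lower at 10 dpa were SMT2-2 (1.98 at 20 dpa and −3.40 at 10 dpa), GRPL1 (2.79 and −2.13), EXPA11A (0.65 and −4.00), ASP3 (2.66 and −1.27), CesA1 (0.83 and −3.06) and SMT2-1 (0.81 and −3.04). The 20 dpa differences of EXPA11A, CesA1 and SMT2-1 are those that turn negative with scaling on all poly-A ends.

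The 6 with the largest difference the other way were lower at 20 dpa and higher at 10 dpa. NAC5/NAC8 was at −2.26 at 20 dpa and 7.71 at 10 dpa, Lox1 at −2.83 and 4.34, pod10 at −1.23 and 5.88, GEPH at −1.95 and 5.09, pod7 at −2.15 and 3.99 and XTH3 at −2.07 and 3.84. A called difference between the stages was a condition for choosing these 12 genes. The difference kept its sign with every scaling and covariate tried, but the largest differences were chosen, at 3.86 or more in size. Scaling on all poly-A ends shifts them by only 0.252, so the kept sign is a description.

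**Figure D4:**
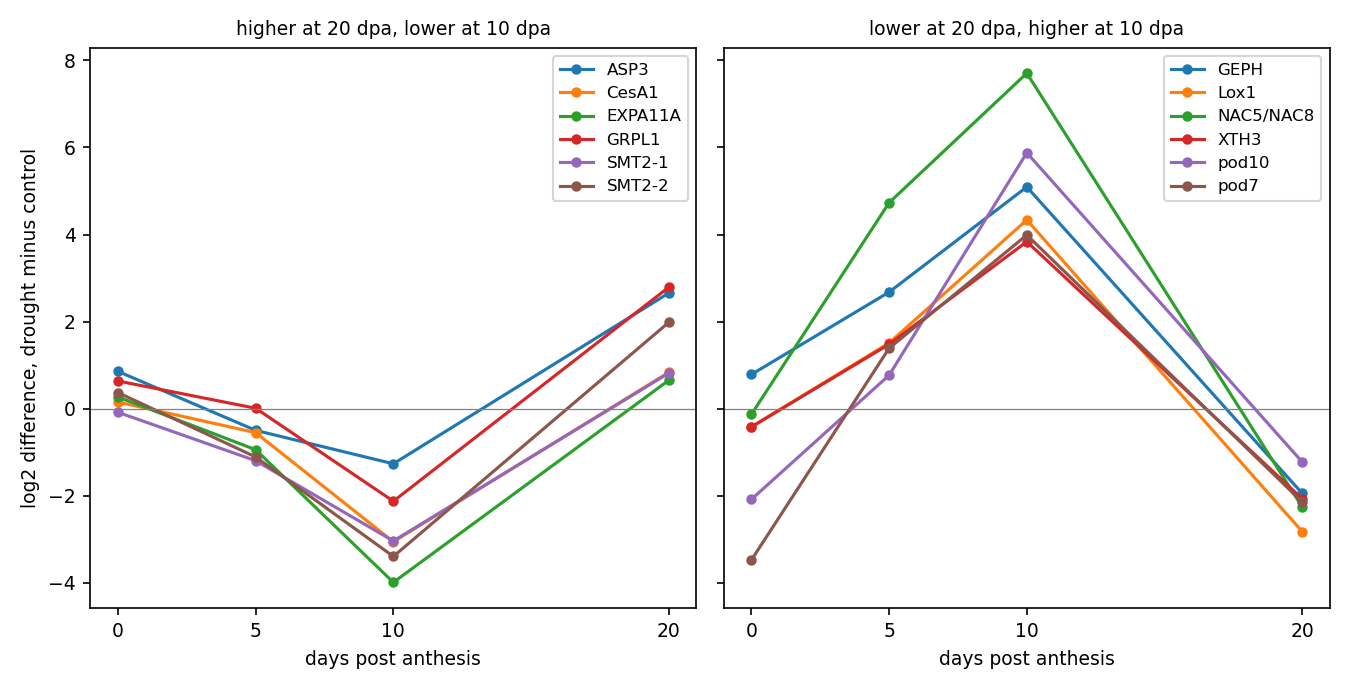
Log2 difference, drought minus control (vertical axis), at 0, 5, 10 and 20 dpa for the 12 named genes with the largest opposite effects at 20 and 10 dpa, from 3 drought and 3 control arrays per stage. The left panel holds the 6 genes higher at 20 dpa, by 0.65 to 2.79, and the right panel the 6 lower at 20 dpa, by −2.83 to −1.23.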

How the data were processed

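RNA from drought and control ovules was hybridised to Affymetrix cotton arrays, from 5.0 µg of total RNA per array, per the labels' protocols. The log2 values were deposited by the authors and made by RMA, per the submitters' processing notes, which name no version. In the deposited log2 values each probe set has a median of 0 over the 6 arrays of a stage (to within 5e-07), a step that no source states. Depth does not apply to arrays, and their number limits the precision.

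From these values group means were fitted over all 24 arrays in 8 groups with limma 3.58.1 (R 4.3.3), leaving 16 residual degrees of freedom. Two-sided p-values were adjusted over 23973 probe sets by the Benjamini-Hochberg method. The script was tested on simulated data. Genes come from the platform annotation and the RefSeq table of Gossypium_hirsutum_v2.1, in which all 520 were found, and 46 probe sets with several genes are not named. The members and lists were chosen with earlier results of these data known, and roles were given by name alone. Genes named are the 8 largest rises and falls without overlap, up to 3 called rises and falls per list, the 6 largest opposite effects each way between 20 and 10 dpa, lists of at most 6 genes and genes that did not pass. GLU, CTL1, ERF3, GHTTG1, myb109, HOX3, HB4, MYB5/MYB6, CPA-FAS-1, CPA-FAS-2, pldd, ACS1, pod5, GID1-4, ARF1, FLA6, KCS38, G9, TUA6, ACS, VP, RAV1, KASIII, KAS2-1, ACBP, sad1, KT, VATE, DET3, FLA13, FLA14, Pel, CPR1, CHS3, MAPKKK, NAC7 and PAP1 were named after their values were seen. Alternatives were scaling, normalization, covariates, array weights, the replicate block and leaving out arrays. No promoter sequence was analysed here.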

Additional observations from a re-analysis of the deposited data

Results flagged for a closer look

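The effect of drought differed between 20 and 10 dpa, by the fitted difference of the 2 effects, for 12 named genes that were called in opposite directions at the stages. The difference, 20 dpa minus 10 dpa, was positive for SMT2-2 (5.38), GRPL1 (4.92), EXPA11A (4.64), ASP3 (3.92), CesA1 (3.90) and SMT2-1 (3.86). It was negative for XTH3 (−5.91), pod7 (−6.14), GEPH (−7.04), pod10 (−7.11), Lox1 (−7.16) and NAC5/NAC8 (−9.97). The highest limma adjusted p among them was 6.93e-12, with 3 drought and 3 control arrays per stage. The genes were named because their difference is called and the largest, so its size and p-value are a description.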

How the results depend on the processing

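For 19 other settings 9 counts and the differences of 182 genes were recomputed, except that the median over probe sets gives only counts of named genes and that 82 of the genes have a probe set without the suffixes _s_at and _x_at. Counts of single lists, of unnamed genes, of groups without overlap and of opposite calls between the stages were not recomputed for most settings. The 3 settings that rest on the poly-A controls were chosen after seeing the data. Leaving out an array of 20 dpa gave 13277 to 14112 called probe sets (5751 to 6062 higher, 7526 to 8145 lower), 1607 to 1816 at least 2-fold higher and 1115 to 1215 lower, 172 to 178 called named genes (65 to 69 higher, 106 to 110 lower) and 13811 to 14355 called differences between 20 and 10 dpa. Counts with only the 20 dpa arrays, array weights, robust eBayes, centring, quantile normalization, scaling on all spike controls or on the poly-A 3′ ends stayed within 1.5 times of those reported. Replicate numbers did not pair the samples (correlation of deviations −0.0208, −0.102 and −0.019 for the same numbers), and with the replicate block 14060 probe sets and 175 named genes were called, and 14095 differences between the stages. Without the probe sets of suffix _s_at or _x_at, which leaves fewer to test, 7522 were called (3037 higher, 4485 lower), 835 at least 2-fold higher and 644 lower, 7470 differed between the stages and 78 named genes were called (29 higher, 49 lower). With the cotton 5′ minus 3′ signal as a covariate 4359 were called (1899 higher, 2460 lower), 1026 at least 2-fold higher, and 86 named genes (25 higher, 61 lower), with a median standard error of 0.261. With the poly-A 5′ minus 3′ signal 4983 were called (2181 higher, 2802 lower), 1052 at least 2-fold higher, and 101 named genes (34 higher, 67 lower). With arrays scaled on all ends of the poly-A controls 22242 were called (1370 higher, 20872 lower), 573 at least 2-fold higher and 10898 lower, and 17 named genes were higher and 209 lower, since the scaling shifts every difference by −0.893. The cause of the covariates' effect was not tested.

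Signs under the scaling and the covariates are those of the chosen probe set. Some other probe sets of CBL1, MPK3, FLA13 and FLA14 rose by more than the shift of −0.893 removes. Among the 182 genes recomputed, those that were called in either fit and whose sign turned had these log2 differences. Genes outside the 182 are not listed, though some turned as well, such as Pel (−0.88 with scaling on all poly-A ends). With scaling on all poly-A ends they were RAV1 −0.44, FLA13 −0.87, FLA14 −0.88, sad1 −0.73, CPR1 −0.55, CHS3 −0.65, MAPKKK −0.87, NAC7 −0.65, PAP1 −0.081, VP −0.75, ACT1 −0.86, sAPX −0.12, FeSOD −0.26, CBF20/DREB1C −0.40, ERF3 −0.47, FLA15 −0.59, FLA6 −0.68, CBL1 −0.060, Anx1 −0.68, CBL3 −0.85, CesA1 −0.060, CEL −0.084, GLU −0.098, CTL1 −0.67, SAMS −0.23, SAMDC −0.74, EXPA11A −0.24, SMT2-1 −0.079, pldd −0.29, KCS38 −0.87, Ghfe1 −0.64, CHS6 −0.29, CCR1 −0.31, CCoAMOT2 −0.32, HIS3 −0.62, MPK3 −0.24, grlk5 −0.63, Di19-1 −0.54, Lea5-D −0.77, SEPALLATA3 −0.70, MADS-3/MADS10 −0.77, WD1521 −0.54, AT1 −0.021, RPL37A −0.53, RPS16 −0.61, EF1A1/EF1A4 −0.64, Sus1 −0.63, BTub3 −0.51, TubA2 −0.58, TUA10 −0.67, TUA6 −0.72 and XTH (LOC107886823) −0.53. With the poly-A covariate they were RAV1 −1.71, PAP1 −0.52, GST (LOC107889738) 0.12, GID1-2 −0.40, ARF1 0.080, GID1-4 0.20, EXPA11A −0.052, CPA-FAS-1 0.16, Ghfe1 −0.12, cdn1 0.23, CHS2 0.25, SEPALLATA3 −0.55, nst3 −0.090, G9 0.16, RPS16 −0.0037, LegB 0.022 and SusA1 −0.35. With the cotton covariate they were RAV1 −1.69, PAP1 −0.59, sAPX −0.0056, GST (LOC107889738) 0.25, GID1-2 −0.47, ARF1 0.059, GID1-4 0.17, EXPA11A −0.041, CPA-FAS-1 0.022, Ghfe1 −0.23, cdn1 0.23, CHS2 0.081, SEPALLATA3 −0.57, nst3 −0.089, AT1 −0.078, G9 0.29, RPS16 −0.14, LegB 0.026, SusA1 −0.60 and TUA6 −0.0013. With the median over a gene's probe sets they were LegB 0.29, KAS2-1 0.043 and TUA10 −0.99. Without the suffixes KAS2-1 was at 0.32, on a probe set of antisense design. Array number, 3 per group, limits the precision, and signal over background could not be judged from centred values.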
